A study of Vitis vinifera with 165 samples.

Results

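Lipoxygenases add oxygen to the polyunsaturated fatty acids linoleic and linolenic acid, at carbon 9 (9-lipoxygenases) or carbon 13 (13-lipoxygenases) of the chain. In plants the products of 13-lipoxygenases feed hydroperoxide lyase, which makes the aldehydes and alcohols of green leaf and fruit aroma, and allene oxide synthase, the entry to the wound and defence hormone jasmonate. The products of 9-lipoxygenases go to other oxylipins and to other volatile aldehydes. This account follows 6 lipoxygenase gene models of the grapevine in ripening Pinot noir berries, selected by their identifiers from the 29971 gene models of the expression table. They are the 9-lipoxygenases LOXA (VIT_06s0004g01510) and LOXC (VIT_06s0004g01500), the 13-lipoxygenase LOXO (VIT_09s0002g01080), and VIT_05s0020g03170, VIT_01s0010g02750 and VIT_13s0064g01480, which are known here only as lipoxygenases.

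RNA came from the seedless pericarp, the skin and flesh of the berry, of vines of a single clone that all carried a reduced crop. Cluster removal after fruit set had taken off 75% of the clusters in one treatment and 50% in the other, and unthinned vines were not analysed here. The 165 libraries form 55 groups of 3 by season (2012, 2013 and 2014), thinning level and sampling day, counted from veraison, when berries soften and colour. Values are RPKM, which divides reads by gene length and by the reads of a library, so levels can be set side by side between gene models; tests used log2(RPKM + 1). All 6 lipoxygenases passed the filter on low values (1 RPKM or more in 3 or more libraries), as did 20460 gene models in all. A difference between stages or seasons was called at an adjusted p under 0.05 (limma, Benjamini-Hochberg over the gene models tested) and a log2 change of 1 or more in either direction, and a thinning difference at the adjusted p alone. What separates replicates of a group is not given in the labels, so the p-values cover the spread between these pooled berry samples and nothing beyond it.

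Total RPKM ran from 876732 to 1405120 per library with a median of 981285, and the depth in reads is unknown. Across gene models, the Pearson r between libraries of one group had a median of 0.987 and a lowest value of 0.915. Day 0 was not the same stage of sugar in every season: sugar lay between 10.23 and 13.43 g per 100 ml in 2012, between 9.25 and 11.12 in 2013, and between 1.4 and 2.15 in 2014, in which day 7 held 11.32 to 13.49.

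Set against the libraries of 75% thinning, several 50% libraries of early 2012 stood closer to another day than to their labelled one. The 3 libraries labelled 50% thinning on day -28 correlated at 0.988 to 0.99 with the mean of the 75% libraries labelled day -18, and at 0.975 to 0.977 with the mean of those labelled day -28. Replicates 1 and 2 labelled 50% on day -18 correlated at 0.951 and 0.979 with the 75% libraries labelled day -28, and at 0.942 and 0.965 with those labelled day -18. Whether labels were exchanged was not tested, and several of the results that rest on these days are given with and without them. With both thinning levels pooled by day, some libraries of all 3 seasons correlated best with another day of their season. On day -18 of 2012 these were replicate 3 of 50% and replicates 1 and 3 of 75% thinning, nearest to day -28. On day 0 of 2012, replicates 1 and 3 of 75% thinning were nearest to day 11.

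LOXA was the predominant transcript among the 6 lipoxygenases followed here, and others were not compared. Its level was the highest of the 6 in 164 of 165 libraries, with a lowest, median and highest value of 22.4, 119.9 and 666.1 RPKM. LOXO stood second in 153 libraries, at 4.57, 16.8 and 91.3 RPKM, and VIT_01s0010g02750 in 11. The median over libraries was 4.28 RPKM for VIT_05s0020g03170, 2.28 RPKM for VIT_01s0010g02750 and 1.29 RPKM for LOXC. VIT_13s0064g01480 was lowest, with a median of 0.0425 RPKM, a highest value of 9.78 RPKM and a listed value of 0 in 31 libraries. LOXA alone made up a median of 55.4% of the summed level of the 6 lipoxygenases at the green stage (day -18 in 2012 and day -14 in the other seasons), 94.0% on day 0, 79.5% on day 21 and 72.6% late (day 32 in 2012 and day 35 in the other seasons), with 18 libraries at each stage. The LOXA and LOXC identifiers are adjacent in the annotation. Reads shared between near-identical copies could be divided between them, and single values of such copies are uncertain.

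LOXA passed through a sharp peak around veraison in every season. In 2012 its mean level was 81.9 ± 29.5 RPKM on day -18, 366.1 ± 48.0 on day -9, 284.9 ± 50.7 on day 0, 135.3 ± 22.3 on day 11, 97.2 ± 28.4 on day 21, 43.2 ± 5.63 on day 32 and 26.5 ± 3.66 on day 42 (SD; n = 6 libraries of both thinning levels, 3 on day 42). The day -9 libraries, at 297.5, 366.2 and 438.7 RPKM for the lowest, median and highest, all lay above the day -18 libraries, at 44.8, 91.3 and 119.9 RPKM. The highest daily mean of 2012 was that of day -9, at 5.07 ± 0.81 g of sugar per 100 ml. Day 0 and day -9 overlapped, at 185.3 to 327.7 RPKM on day 0, so the 2012 maximum cannot be placed on a single day.

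In 2013 LOXA averaged 190.5 ± 49.6 RPKM on day -14, 354.9 ± 80.0 on day -7, 421.1 ± 31.6 on day 0, 310.6 ± 72.3 on day 7, 135.7 ± 12.6 on day 14, 88.7 ± 11.3 on day 21, 55.6 ± 3.08 on day 28 and 41.6 ± 5.75 on day 35 (SD, n = 6). Day 0 and day -7 overlapped, at 366.0 to 462.9 RPKM on day 0 and 258.1 to 457.5 RPKM on day -7, and the 2013 maximum likewise cannot be placed on a single day. In 2014 the means were 63.0 ± 8.16 RPKM on day -14, 192.8 ± 72.4 on day -6, 578.0 ± 59.4 on day 0, 400.2 ± 89.0 on day 7, 186.1 ± 48.6 on day 14, 154.4 ± 13.04 on day 21, 135.5 ± 35.3 on day 28 and 62.3 ± 18.7 on day 35. Day 0 of 2014 stood apart from day -6, with 496.4 to 666.1 RPKM against 122.9 to 327.6 RPKM, although sugar overlapped on those days (1.4 to 2.15 and 1.48 to 2.01 g per 100 ml). The highest daily mean exceeded the lowest by 13.8 times in 2012, 10.1 times in 2013 and 10.7 times in 2014. The lowest of 2012 was that of day 42, sampled at 50% thinning alone.

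**Figure D1:**
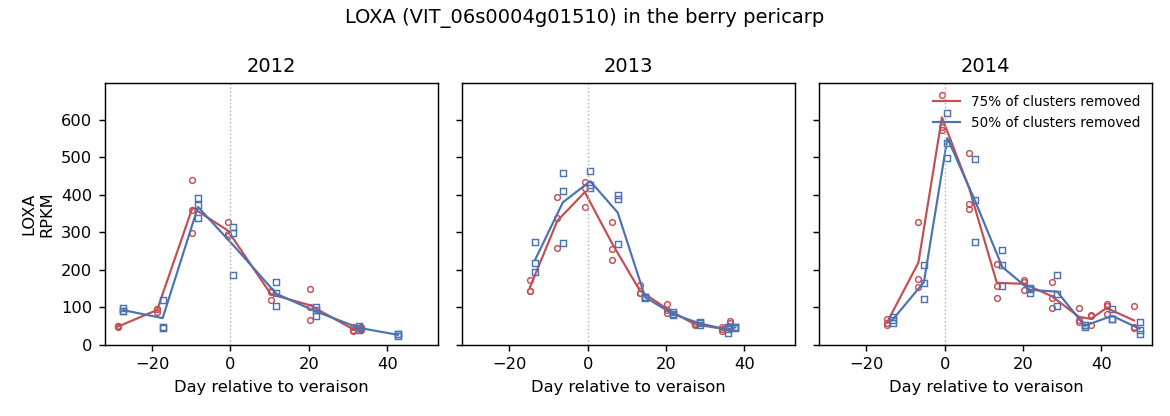
LOXA level in RPKM (vertical axis) against day relative to veraison (horizontal axis) in 2012, 2013 and 2014, with circles for 75% and squares for 50% thinning, 1 point per library, set slightly apart sideways, and lines through the means of 3. The highest daily mean falls on day -9 in 2012 and on day 0 in 2013 and 2014, and the highest library reaches 666.1 RPKM on day 0 of 2014.

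Between the green stage and day 0, 4 of the 6 lipoxygenases changed: LOXA rose, and VIT_05s0020g03170, VIT_01s0010g02750 and VIT_13s0064g01480 fell. Of all gene models tested, 17.4% were called in this window, 4.61% higher and 12.8% lower on day 0. LOXA had 185.3, 422.6 and 666.1 RPKM on day 0 and 44.8, 91.3 and 273.4 RPKM at the green stage for the lowest, median and highest of 18 libraries. The change was 2.07 ± 0.10 on the log2 scale (SE; adjusted p = 8.54e-40, limma), and it was 1.85 in 2012, 1.17 in 2013 and 3.18 in 2014. It was called in each season, where 6.07%, 4.19% and 5.03% of gene models were called higher and 18.3%, 12.3% and 11.6% lower. Of the falls, that of VIT_01s0010g02750 was called in each season. VIT_05s0020g03170 and VIT_13s0064g01480 were called in 2012 (-1.52 and -1.83), but not in 2013 (-0.88 and -0.98) or 2014 (-0.75 and -0.88). In 2012 the direction rests on the green day chosen: against day -9 in place of day -18 the LOXA difference of day 0 was -0.37. With replicates 1 and 2 of the 50% libraries of day -18 removed, the 2012 change was 1.40.

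After veraison LOXA declined in both later windows. It had 66.4, 100.4 and 172.7 RPKM on day 21, against 185.3, 422.6 and 666.1 RPKM on day 0, so that all 18 libraries of day 21 were below all 18 of day 0. That change was -1.90 ± 0.10 (adjusted p = 2.78e-36), in a window in which 11.5% of gene models were called, 3.89% higher and 7.57% lower. From day 21 to the late days only 1.85% of gene models were called, 0.381% higher and 1.47% lower, and LOXA was the only called lipoxygenase of the 6, at -1.18 ± 0.10 (adjusted p = 4.5e-20). The late libraries held 32.6, 46.5 and 98.3 RPKM for the lowest, median and highest. With a pseudocount of 0.1 in place of 1, VIT_05s0020g03170 was called in the late window as well, at -1.22.

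Over the whole span from the green stage to day 21, the seasons differed in LOXA. The difference of day 21 minus green was 0.29 ± 0.17 in 2012 (adjusted p = 0.118), -1.07 ± 0.17 in 2013 (adjusted p = 1.72e-08) and 1.29 ± 0.17 in 2014 (adjusted p = 3.51e-11, with 8.43% of gene models called higher). The test of the difference between seasons gave an adjusted p of 3.9e-14 (limma moderated F-test), a test that called 49.7% of all gene models. Levels on the green day itself were apart: in 2014 day -14 held 52.7 to 74.2 RPKM, and in 2013 it held 143.4 to 273.4 RPKM, without overlap. On that day 2014 minus 2013 was -1.55 ± 0.17 (adjusted p = 6.41e-14), where 7.37% of gene models were called. Sugar on day -14 was 0.69 to 0.94 g per 100 ml in 2014 and 0.99 to 1.41 g per 100 ml in 2013.

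The LOXA season values depend on the scaling and on which libraries and days stand for the green stage. With day -9 as the green day of 2012 the 2012 difference was -1.94. With replicates 1 and 2 of the 50% libraries of day -18 removed, the 2012 difference turned direction, to -0.16. The 2013 difference was -0.996, short of the fold needed, once replicate 2 of the 50% libraries of day -14 was removed. The 2013 call was also lost under quantile normalization (-0.92) and median-ratio scaling (-0.73). Compared at matched sugar, that is on day 7 of 2014 and day 0 of the other seasons, LOXA was not called between any seasons. The log2 difference was 0.58 for 2013 minus 2012 (95% interval 0.24 to 0.92), 0.48 for 2014 minus 2012 (0.14 to 0.82) and -0.10 for 2014 minus 2013 (-0.44 to 0.24).

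LOXO, the 13-lipoxygenase, had its highest stage median before veraison. Its lowest, median and highest values were 8.47, 31.9 and 63.8 RPKM at the green stage, 4.57, 17.1 and 27.8 RPKM on day 0, 10.7, 19.0 and 42.3 RPKM on day 21 and 9.83, 13.9 and 17.9 RPKM late, over 18 libraries each. The stages overlapped throughout. The highest daily means were 22.7 ± 7.01 RPKM on day 21 in 2012, 34.8 ± 9.10 RPKM on day -7 in 2013 and 56.6 ± 30.7 RPKM on day -6 in 2014 (SD, n = 6). On that last day the 75% libraries held 28.0, 91.3 and 29.7 RPKM and the 50% libraries held 29.1, 76.7 and 84.8 RPKM, so a high and a low library occurred at both thinning levels.

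Averaged over seasons, LOXO was called in none of the 4 stage windows (limma). Its log2 difference was -0.87 ± 0.12 from the green stage to day 0, 0.38 ± 0.12 from day 0 to day 21, -0.49 ± 0.12 from the green stage to day 21 (adjusted p = 1.78e-04) and -0.57 ± 0.12 from day 21 to the late days, each short of the fold needed. After quantile normalization the difference from green to day 21 was -0.16 (adjusted p = 0.227). Single seasons departed from these means. From green to day 0 the difference was -0.93 in 2012, -0.30 in 2013 and -1.37 in 2014, and the 2014 fall was called (adjusted p = 1.37e-08). From day 0 to day 21 it was 1.04 in 2012 (called; 3.72% of gene models called higher), -0.76 in 2013 and 0.85 in 2014, so the mean of 0.38 averages seasons of opposite direction. The 2012 rise was lost when any of 4 single libraries was left out, and without all libraries numbered replicate 2 (0.96). With each library left out in turn its value lay between 0.80 and 1.23, computed without a new test. From day 21 to the late days it was -0.41 in 2012, -0.15 in 2013 and -1.14 in 2014, and the 2014 fall was called (adjusted p = 4.74e-06; 2.83% of gene models called lower). Both 2014 falls kept the fold needed whichever 1 library was left out, in values computed without a new test. From green to day 21 the difference was 0.10 in 2012, -1.06 in 2013 (called) and -0.51 in 2014, and the seasons differed at an adjusted p of 0.00298. The 2013 call was lost when any of 3 single libraries of day -14 was left out. With each library left out in turn the value lay between -1.27 and -0.87, computed without a new test. That call was also lost under quantile normalization (-0.72) and median-ratio scaling (-0.74).

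On day 21 LOXO was higher in 2014 than in 2013, at 18.6, 29.6 and 42.3 RPKM against 10.7, 13.1 and 16.6 RPKM for the lowest, median and highest of 6 libraries, with no overlap. The difference was 1.13 ± 0.21 (adjusted p = 1.36e-05), in a comparison that called 2.63% of gene models. None of the 6 was called on day 21 between 2013 and 2012 or between 2014 and 2012, where 1.78% and 2.53% of gene models were, and 3 of the 6 had an unadjusted p under 0.05 in each. With all libraries numbered replicate 3 removed, the LOXO difference of 2014 minus 2013 was 0.998, short of the fold needed. On day 28 the order of the 2 seasons was the other way round, with 8.21 to 13.6 RPKM in 2014 and 23.6 to 38.0 RPKM in 2013. At matched sugar LOXO was higher in 2013 than in 2012 by 1.11 ± 0.21 (adjusted p = 4.59e-06; 4.43% of gene models called) and higher in 2014 than in 2012 by 1.01 ± 0.21 (adjusted p = 3.59e-05; 4.75% called). Both calls were lost under quantile normalization (0.89 and 0.90), median-ratio scaling (0.94 and 0.92) and sugar as a covariate (0.93 and 0.99), and the second also without all libraries numbered replicate 2 (0.78). No lipoxygenase was called between 2014 and 2013 at matched sugar, where 2.23% of gene models were and 2 of the 6 had an unadjusted p under 0.05. The sugar ranges of those days did not overlap.

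LOXC, the second 9-lipoxygenase, stayed low. It held 0.92, 1.55 and 1.97 RPKM at the green stage, 0.66, 1.41 and 1.99 RPKM on day 0, 0.90, 1.58 and 2.21 RPKM on day 21 and 0.63, 0.98 and 1.65 RPKM late for the lowest, median and highest of 18 libraries. The stages overlapped, and LOXC was called in no stage window. From green to day 21 its difference was 0.03 (95% interval -0.07 to 0.13; adjusted p = 0.546), and from day 21 to the late days it was -0.34 ± 0.05. The first value depends on the scaling: it was 0.52 after quantile normalization (adjusted p = 4.64e-19) and 0.23 after median-ratio scaling (adjusted p = 4.51e-06), both short of the fold needed. The difference of day 0 minus green turned direction, at -0.12 on the deposited scale and 0.27 after quantile normalization (adjusted p = 1.62e-07). At these levels the scale of log2(RPKM + 1) understates a change.

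**Figure D2:**
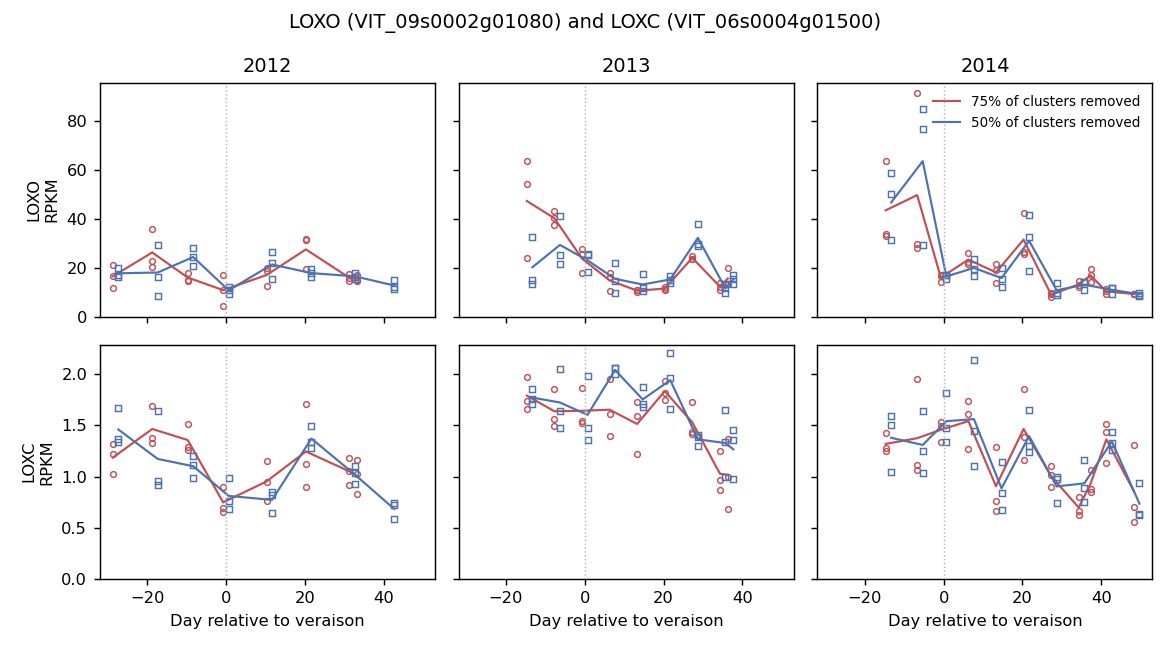
LOXO (upper row) and LOXC (lower row) in RPKM against day relative to veraison in 2012, 2013 and 2014, with circles for 75% and squares for 50% thinning, 1 point per library, and lines through the means of 3. LOXO reaches 91.3 RPKM on day -6 of 2014 with wide scatter between replicates, and LOXC stays between 0.56 and 2.21 RPKM.

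VIT_05s0020g03170, VIT_01s0010g02750 and VIT_13s0064g01480 were transcripts of the green berry. From the green stage to day 21 all 3 fell, while LOXA, LOXC and LOXO were not called, in a window in which 29.9% of gene models were called, 7.66% higher and 22.3% lower. The median difference of all gene models tested was -0.30 on the log2 scale (0.06 after quantile normalization and -0.04 after median-ratio scaling), and that of the 6 lipoxygenases was -1.43. In bulk pericarp, fewer cells of a type and less RNA per cell cannot be told apart. All 3 falls were called within each season, where 23.4%, 23% and 22.3% of gene models were called lower in 2012, 2013 and 2014, and under every alternative computed for the mean over seasons. Within 2012, VIT_01s0010g02750 was not called with day -9 as the green day (-0.65).

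VIT_05s0020g03170 declined step by step. It held 12.3, 15.6 and 18.7 RPKM at the green stage, 2.15, 7.84 and 11.5 RPKM on day 0, 1.43, 2.201 and 3.82 RPKM on day 21 and 0.50, 0.84 and 1.74 RPKM late for the lowest, median and highest of 18 libraries. All libraries of day 21 lay below all of the green stage. The change to day 21 was -2.38 ± 0.07 (adjusted p = 6.12e-62), with -1.05 up to day 0 and -1.33 from there on. As a percentage of the green mean, the level on day 0 was 32.1% in 2012, 51.4% in 2013 and 57.3% in 2014, and on day 21 it was 15.6%, 13.1% and 14.7% in the same seasons. The change up to day 0 was short of the fold needed without replicate 2 of 75% thinning on day 0 of 2012 (-0.98) and also under quantile normalization (-0.75), median-ratio scaling (-0.84) and day -9 as the green day of 2012 (-0.91).

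VIT_01s0010g02750 fell earlier, before or at veraison, and then stayed low. It held 16.3, 19.7 and 29.9 RPKM at the green stage, 0.36, 2.11 and 4.22 RPKM on day 0, 1.28, 2.36 and 3.01 RPKM on day 21 and 1.38, 1.85 and 2.58 RPKM late. No library of a later stage reached the green range. The change was -2.74 ± 0.06 from green to day 0 and also to day 21 (adjusted p = 5.31e-72 to day 21). Between day 0 and day 21 it was 0.00 ± 0.06 (95% interval -0.12 to 0.12). That mean averages seasons of opposite direction, at 0.27 in 2012, 0.07 in 2013 and -0.33 in 2014, none of them called (limma adjusted p = 0.0245, 0.608 and 0.00467). In 2014 the gene model held 3.06 to 4.22 RPKM on day 0 and 1.69 to 2.71 RPKM on day 7, without overlap.

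The day on which VIT_01s0010g02750 dropped differed between seasons when counted from the labelled veraison. On day -9 of 2012 it held 2.39, 3.18 and 4.63 RPKM, 13.9% of its green mean. On day -7 of 2013 it held 4.75, 6.09 and 8.99 RPKM, or 32.6%, and on day -6 of 2014 it held 13.2, 17.2 and 21.0 RPKM, or 91.3%. The 3 ranges did not overlap. Sugar on those days was 4.21 to 6.11, 2.98 to 5.04 and 1.48 to 2.01 g per 100 ml, and on day 0 of 2014, at 1.4 to 2.15 g per 100 ml, the gene model was at 19.5% of its green mean. The change to day 21 was -3.17 in 2012, -2.64 in 2013 and -2.42 in 2014, and the seasons differed at an adjusted p of 4.35e-05.

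VIT_13s0064g01480 went to the limit of the table. It held 2.85, 4.36 and 9.78 RPKM at the green stage and 0.45, 1.52 and 2.46 RPKM on day 0. On day 21 the highest of 18 libraries was at 0.0633 RPKM with 5 listed at 0, and on the late days the highest was at 0.0392 RPKM with 10 listed at 0. The change from green to day 0, -1.23 ± 0.07, was short of the fold needed under quantile normalization (-0.78) and with day -9 as the green day of 2012 (-0.94). The day 21 and green libraries did not overlap, and the difference of day 21 minus green was -2.45 ± 0.07 (adjusted p = 7.09e-64). Because log2(RPKM + 1) is near 0 for the ripe berry, that value is set by the green level and gives no fold. With replicates 1 and 2 of the 50% libraries of day -18 in 2012 removed, it was -2.30.

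**Figure D3:**
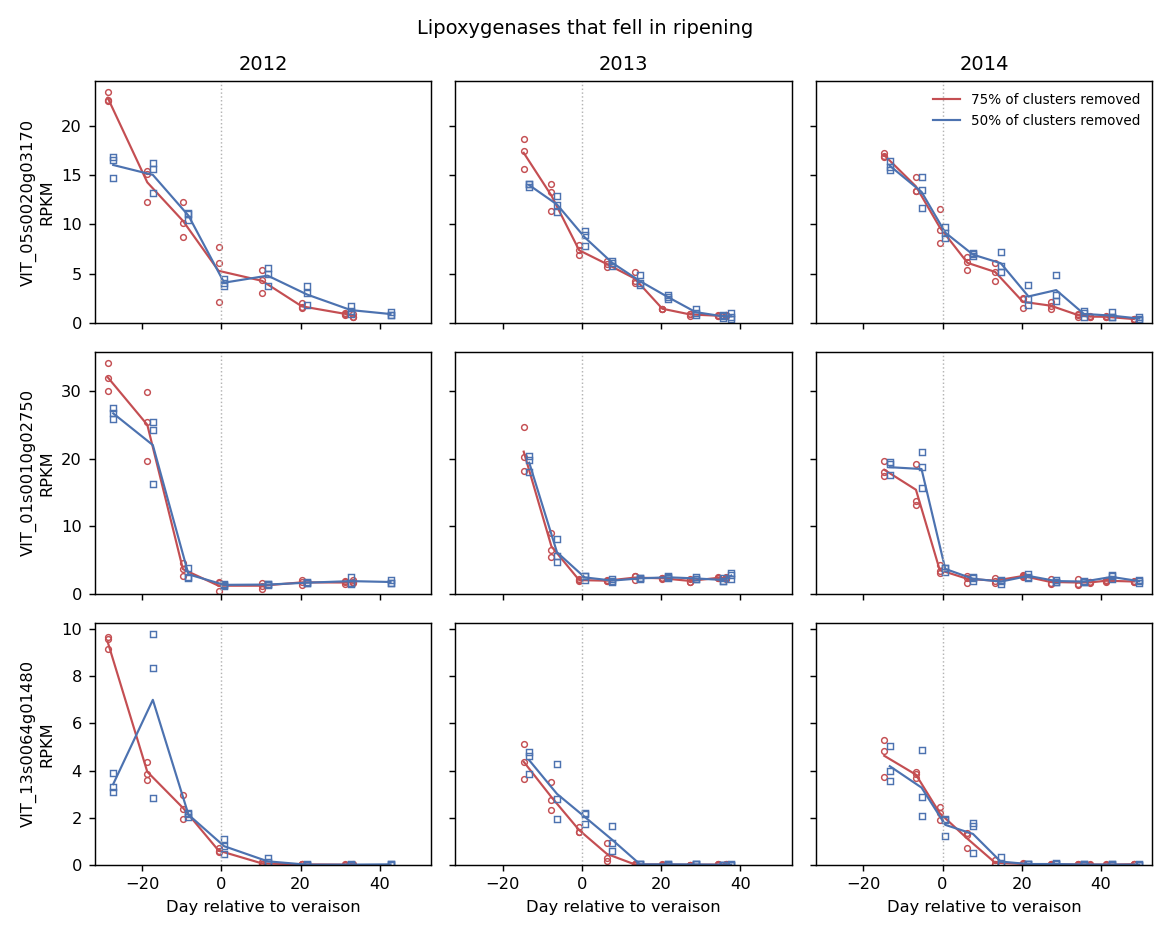
VIT_05s0020g03170, VIT_01s0010g02750 and VIT_13s0064g01480 in RPKM against day relative to veraison in 2012, 2013 and 2014, with circles for 75% and squares for 50% thinning, 1 point per library, and lines through the means of 3. All 3 are highest on the earliest days; VIT_01s0010g02750 has dropped to 13.9% of its green mean by day -9 of 2012 but stands at 91.3% on day -6 of 2014.

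These 3 gene models ran in parallel across the 55 group means of log2(RPKM + 1), which share libraries and the course of ripening. Pearson r was 0.901 between VIT_05s0020g03170 and VIT_13s0064g01480, 0.871 between VIT_01s0010g02750 and VIT_13s0064g01480 and 0.735 between VIT_05s0020g03170 and VIT_01s0010g02750. LOXA had an r of 0.576 with VIT_05s0020g03170, its highest with any of the other 5, then 0.407 with LOXC, 0.359 with VIT_13s0064g01480, 0.212 with LOXO and -0.01 with VIT_01s0010g02750.

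Among all gene models tested, those most like LOXA over the 55 group means were VIT_17s0000g01160 (r = 0.935), VIT_16s0022g00940 (0.933) and VIT_12s0055g00910 (0.933). For VIT_13s0064g01480 they were VIT_11s0016g00300 (0.994), VIT_11s0016g01020 (0.991) and VIT_03s0038g02010 (0.989). For VIT_05s0020g03170 they were VIT_01s0026g00960 (0.989), VIT_07s0129g00730 (0.988) and VIT_02s0154g00080 (0.987), and for VIT_01s0010g02750 they were VIT_18s0001g12620 (0.986), VIT_02s0025g01850 (0.986) and VIT_16s0039g01910 (0.984). LOXO was most like VIT_08s0032g01220 (0.917), VIT_18s0001g07320 (0.897) and VIT_10s0003g05330 (0.892). LOXC had no close match, the nearest being VIT_00s0160g00090 (0.749), VIT_12s0034g02200 (0.744) and VIT_04s0044g00050 (0.716). None of these gene models has a name in the sources used here.

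The thinning comparison asked whether removing 75% in place of 50% of the clusters was accompanied by another lipoxygenase level. Over the 26 matched days none of the 6 was called (limma; 1 of 6 had an unadjusted p under 0.05), against 2.9% of all gene models. The log2 difference of 75% minus 50% and its 95% interval were 0.02 (-0.07 to 0.12) for LOXA, -0.02 (-0.06 to 0.03) for LOXC and 0.02 (-0.10 to 0.13) for LOXO. For VIT_05s0020g03170 they were -0.07 (-0.14 to -0.01), for VIT_01s0010g02750 -0.01 (-0.07 to 0.05) and for VIT_13s0064g01480 0.01 (-0.05 to 0.07). LOXA held 35.7, 130.7 and 666.1 RPKM at 75% thinning and 29.0, 123.2 and 617.1 RPKM at 50% thinning for the lowest, median and highest of 78 libraries each. None was called within 2012, 2013 or 2014, where 1.01%, 0.0635% and 0.152% of gene models were, and 0, 0 and 2 of the 6 had an unadjusted p under 0.05. The test of a difference between seasons called none either, with 0 of 6 at an unadjusted p under 0.05 and 0.0293% of all gene models called.

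By phase, 1 lipoxygenase was called late and none earlier. Before day 0 and from day 0 to day 14, 0 of 6 were called, with 1 of 6 at an unadjusted p under 0.05 in each and 2.03% and 3.54% of all gene models called. From day 21 to harvest 5.04% of gene models were called, 1.08% higher and 3.96% lower at 75% thinning, and VIT_05s0020g03170 was among the lower ones. It held 0.35, 0.93 and 2.53 RPKM at 75% thinning and 0.32, 1.11 and 4.88 RPKM at 50% thinning for the lowest, median and highest of 33 libraries each, with means of 1.11 ± 0.57 and 1.59 ± 1.16 RPKM (SD). The difference was -0.24 ± 0.05 (adjusted p = 0.00136), with the 75% mean lower on 9 of 11 days.

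**Figure D4:**
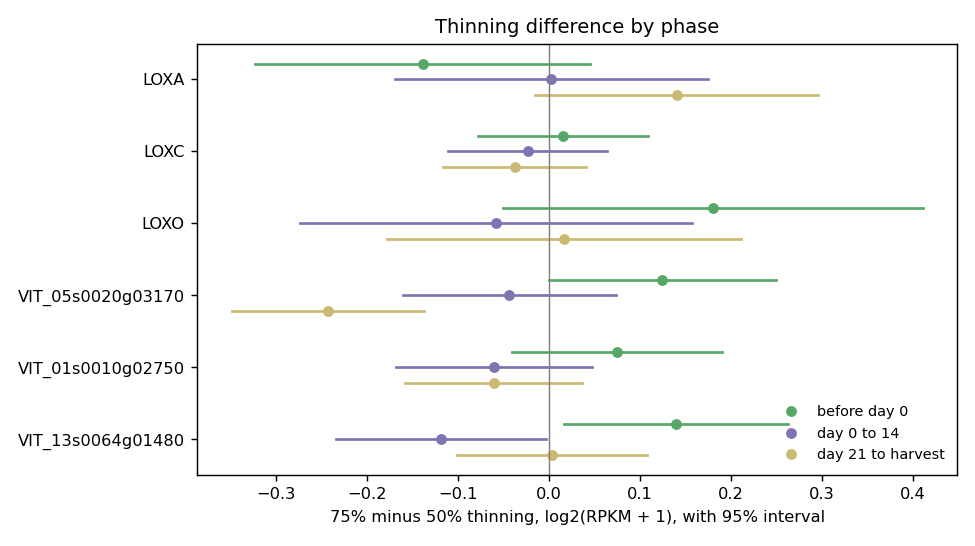
Difference of 75% minus 50% thinning on the log2(RPKM + 1) scale for the 6 lipoxygenases before day 0, from day 0 to day 14 and from day 21 to harvest, as points with 95% intervals. The interval of VIT_05s0020g03170 from day 21 to harvest runs from -0.35 to -0.14, and that call is the only one of the 18 values.

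The late gap in VIT_05s0020g03170 was widest on 3 of the 11 days. On day 21 of 2013 the libraries held 1.46, 1.46 and 1.43 RPKM at 75% and 2.87, 2.62 and 2.42 RPKM at 50% thinning, without overlap. On day 28 of 2014 they held 1.73, 2.09 and 1.47 RPKM at 75% and 2.86, 4.88 and 2.28 RPKM at 50%, again without overlap. On day 21 of 2012 they held 1.60, 1.49 and 2.00 RPKM at 75% and 3.77, 1.83 and 3.04 RPKM at 50%, and these overlapped. Over the gene models tested, the 50% library at 3.77 RPKM on day 21 of 2012 correlated best with day 11 of its season. The 50% library at 4.88 RPKM on day 28 of 2014 correlated best with day 14. Their joint part in the late gap was not tested. On the other 8 late days the mean difference lay between -0.25 and 0.07 and the groups overlapped, and on days 35 and 37 of 2013 the 75% mean was the higher. Mean sugar, in the unit used above, was higher at 75% than at 50% thinning on all 3 of the widest days. It was 20.8 against 20.58 on day 21 of 2012 and 21.42 against 20.81 on day 21 of 2013. On day 28 of 2014 it was 23.28 against 20.85. Sugar was lower at 75% on day 37 of 2013 and on days 42 and 49 of 2014. On the remaining late days it was higher. The part of sugar in the gap on single days was not tested.

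The thinning difference of VIT_05s0020g03170 differed between the 3 phases (adjusted p = 0.00527, where 6.35% of gene models were called). Before day 0 it was 0.12 (95% interval 0.00 to 0.25), and from day 0 to day 14 it was -0.04 (-0.16 to 0.07). The fall from green to day 21 was likewise larger at 75% thinning, -2.64 against -2.12 at 50%, and in each season, with -2.50, -2.89 and -2.53 at 75% against -2.07, -2.04 and -2.23 at 50% in 2012, 2013 and 2014. That difference of changes was -0.52 ± 0.13 (adjusted p = 0.0269, with 1% of gene models called), and no other lipoxygenase was called.

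The calls on VIT_05s0020g03170 differ in how much they rest on single samples. The late call was made in all 90 fits that left out 1 library (-0.28 to -0.22) and with sugar as a covariate (-0.22, adjusted p = 0.00643). Of those 90 fits, only the ones without 1 of the 33 late libraries of either thinning level could move its value. The late call was not made without day 21 of 2012 (-0.20, adjusted p = 0.0935) nor without all libraries numbered replicate 1 (-0.21, adjusted p = 0.173). The difference between phases was not called without days -28 and -18 of 2012 (adjusted p = 0.055), nor without all libraries numbered replicate 1 (0.454) or replicate 3 (0.0981). The difference of changes was lost without replicate 1 or replicate 3 as well (adjusted p = 0.856 and 0.211), with day -9 as the green day of 2012 (0.0564) and without replicates 1 and 2 of the 50% libraries of day -18 (0.0661). Of the 90 fits without 1 library, only those without 1 of the 36 libraries of the green days and day 21 could move the difference of changes. It was not called in 4 of them, those without replicate 1 of 50% thinning on day 21 of 2012 or of 2014, replicate 2 of 50% on day -14 of 2014 or replicate 3 of 75% on day 21 of 2014 (adjusted p from 0.0538 to 0.0951).

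**Figure D5:**
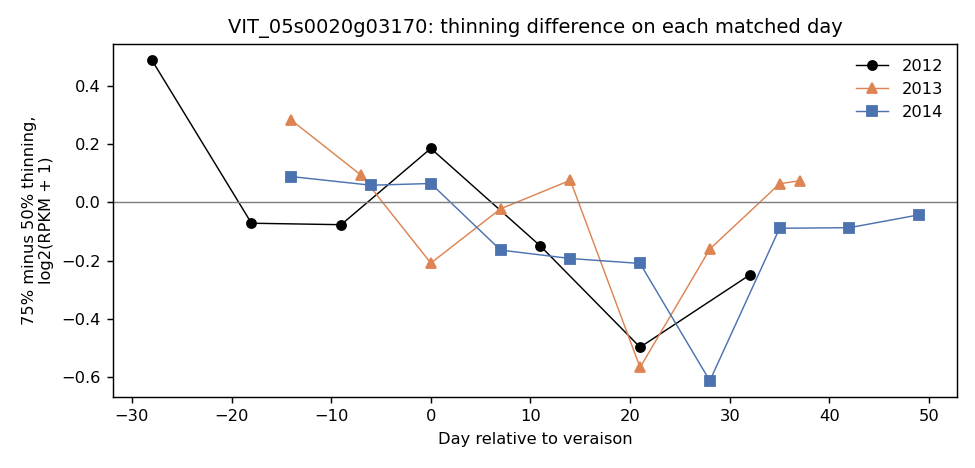
Difference of 75% minus 50% thinning in VIT_05s0020g03170 on the log2(RPKM + 1) scale (vertical axis) on each of the 26 matched days (horizontal axis, day relative to veraison), 1 line per season, each point a difference of 2 means of 3 libraries. The lowest points are day 28 of 2014 (-0.61), day 21 of 2013 (-0.57) and day 21 of 2012 (-0.50), and the highest is day -28 of 2012 (0.49).

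On single days, 5 differences were called among the 6 lipoxygenases, and 4 of them fell on the days of 2012 whose libraries stood apart. On day -28 of 2012, where 21% of gene models were called, LOXA held 46.4, 49.1 and 49.9 RPKM at 75% and 98.2, 89.6 and 88.9 RPKM at 50% thinning (-0.91 ± 0.24; adjusted p = 0.0025). VIT_13s0064g01480 held 9.15, 9.58 and 9.65 RPKM at 75% and 3.88, 3.32 and 3.07 RPKM at 50% (1.24 ± 0.16; adjusted p = 5.29e-10), and VIT_05s0020g03170 differed by 0.49 ± 0.16 (adjusted p = 0.0219). The VIT_05s0020g03170 libraries held 22.6, 23.4 and 22.5 RPKM at 75% and 14.7, 16.8 and 16.5 RPKM at 50%. The groups did not overlap for any of the 3 gene models. The call on VIT_05s0020g03170 was lost with a pseudocount of 0.1 (adjusted p = 0.123) and in 2 fits without 1 library. Those were the fits without replicate 1 of 50% (0.0958) or replicate 2 of 75% (0.0708) on that day. Of the 90 fits, only those without 1 of the 6 libraries of that day could move the difference. The LOXA call was lost without all libraries numbered replicate 1 (adjusted p = 0.0989). On day -18, where 16.6% were called, VIT_13s0064g01480 held 4.37, 3.86 and 3.61 RPKM at 75% and 9.78, 8.37 and 2.85 RPKM at 50% (-0.56 ± 0.16; adjusted p = 0.0089), with replicate 3 of 50% below every 75% library. Without replicates 1 and 2 of 50% thinning that difference was 0.36 (adjusted p = 0.521), and with a pseudocount of 0.1 it was not called (adjusted p = 0.162). LOXA on day -18 held 95.9, 87.4 and 95.1 RPKM at 75% and 44.8, 48.2 and 119.9 RPKM at 50%, a pattern in which the same replicates stand apart.

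Outside 2012 the single call was LOXO on day -14 of 2013, where 2.5% of gene models were called. It held 54.1, 24.0 and 63.8 RPKM at 75% and 14.8, 32.4 and 13.4 RPKM at 50% thinning (1.18 ± 0.30; adjusted p = 0.0108). Replicate 2 went against the other replicates at both levels, so the groups overlapped. The call was lost when replicate 1 or 3 of either thinning level was left out, with adjusted p-values from 0.115 to 0.273. On the other 23 matched days no lipoxygenase was called, and between 0% and 1.57% of all gene models were.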

How the data were processed

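The authors deposited RPKM values, per the labels from non-directional TruSeq libraries of pericarp RNA; TopHat2 (2.0.6) and Cufflinks (2.0.2) appear among the tools of the submitters' processing notes. The genome build and settings are not given in the sources used here, overlapping antisense genes are not told apart, and low values are not steps of whole reads, so no counting error was computed. RPKM was tested as log2(RPKM + 1) with limma 3.58.1 in R 4.3.3 (trend, 1 mean for each of 55 groups, 110 residual and 3.24 prior degrees of freedom). Adjusted p-values are Benjamini-Hochberg values over 20460 gene models. Seasons and thinning levels were weighted equally, and days equally within a season, so a day counted for more in a season with fewer days. The procedure was tested on simulated data. All 6 gene models are described, with the 3 gene models most alike by Pearson r. The members, lists and contrasts were chosen with earlier results of these data known. The reference used here paired 0 of the table's identifiers, so other pathway genes, tissue markers and sequences are not reported. Alternatives covered pseudocount, filter, scaling, replicate block, sugar, days and left-out libraries.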

Additional observations from a re-analysis of the deposited data

Results flagged for a closer look

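In 5 cases, tests of a difference between seasons, phases or thinning levels reached an adjusted p under 0.05 (limma). The change from the green stage to day 21 differed between seasons for LOXA (3.9e-14), for VIT_01s0010g02750 (4.35e-05) and for LOXO (0.00298). The thinning difference of VIT_05s0020g03170 differed between phases (0.00527), and its change from green to day 21 differed between thinning levels (0.0269). Of all gene models tested, 49.7% passed the test between seasons, 6.35% that between phases and 1% that between thinning levels. Sugar on the labelled day 0 of 2014, 1.4 to 2.15 g per 100 ml, was below that of 2012 and 2013 (9.25 to 13.43), and its part in the season results was not tested.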

How the results depend on the processing

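Of the counts of called lipoxygenases recomputed under the alternatives, 355 stayed within 1.5 times the value reported and 39 did not; of the single values, 2991 kept their call or lack of one, 54 lost and 25 gained a call, and 3 with a call turned direction. Of the 2991, 2890 also kept their sign; among the others, none of them called, 5 had an adjusted p under 0.05 after turning: LOXC under quantile normalization from green to day 0 (0.27, in 2013 0.31) and to day 21 of 2012 (0.48, 0.22 under median-ratio scaling), and LOXA from green to day 21 with day -9 as the green day (-0.57, mean of seasons). The 3 that turned with a call are LOXA from green to day 21 of 2012 (-1.94) and to day 0 of 2012 (-0.37) with day -9 as the green day, and VIT_13s0064g01480 on day -18 of 2012 without replicates 1 and 2 of 50% thinning (0.36). Alternatives on these libraries, on both early days together, on single libraries and on single late days were chosen after seeing the data.

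Counts moved as follows, with the reported count in brackets. A pseudocount of 0.1 gave 2 (1) in the late window and in that of 2013, 2 (1) for 2013 minus 2012 at matched sugar and 3 (5) on single days. Quantile normalization gave 3 (5) from green to day 21 in 2013, 2 (4) from green to day 0 and 0 (1) for 2013 and 2014 minus 2012 at matched sugar. Median-ratio scaling gave 3 (5) from green to day 21 in 2013 and 0 (1) for both sugar comparisons, as did sugar as a covariate for those 2. Day -9 as the green day of 2012 gave 2 (4) from green to day 0, 1 (4) in 2012 alone, 5 (3) for the difference between seasons and 0 (1) for that between thinning levels. Without day -18 of 2012 the thinning count was 1 (0) before day 0, with VIT_13s0064g01480 at 0.28, and 2 (1) for the difference between phases. Without replicates 1 and 2 of 50% thinning on that day it was 1 (0) in 2012, before day 0 and between seasons, 2 (1) between phases and 0 (1) for the changes between thinning levels. Without days -28 and -18 it was 0 (1) between phases, and without day 21 of 2012 it was 0 (1) late.

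Leaving out all libraries of 1 replicate number, which leaves 2 per group, gave 0 to 1 for late thinning, for the difference between phases and for that between thinning levels, 2 to 7 on single days, 1 to 2 from day 0 to day 21 of 2012, 0 to 1 late in 2012 and in 2013, 0 to 1 for 2014 minus 2012 at matched sugar and for 2014 minus 2013 on day 21, 0 to 1 for thinning in 2012 and 0 to 2 for its difference between seasons. The causes were not tested. Replicate numbers do not pair the samples: deviations of same-numbered samples correlated above 0.1 in 20 of 78 pairs (median -0.008). With the replicate number as a block no call changed, with -0.24 for late thinning of VIT_05s0020g03170 (adjusted p = 0.00102). Depth is unknown, so values near 0, as of VIT_13s0064g01480 after day 14, carry no counting error.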

Other observations

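Late in 2014 the LOXA level did not run down evenly. It was 46.7 to 98.3 RPKM on day 35, 68.6 to 108.9 RPKM on day 42 and 29.0 to 102.8 RPKM on day 49 (6 libraries each). On day 49 replicate 3 of 75% thinning held 102.8 RPKM, and the other 5 libraries held 29.0 to 61.9 RPKM. Over the gene models tested, that replicate 3 correlated best with day 42. LOXC had a like course, with 0.63 to 1.16 RPKM on day 35, 1.13 to 1.52 RPKM on day 42 and 0.56 to 1.31 RPKM on day 49. No test was made of these days. In 2013 the LOXO level on day 28, 23.6 to 38.0 RPKM, lay above that on days 21 and 35, 10.7 to 16.6 and 9.83 to 13.6 RPKM, without overlap in the 6 libraries of each day. The days sampled at 1 thinning level entered no comparison. On day 38 of 2014 (75%), LOXA held 80.1, 51.5 and 75.7 RPKM, and in 2012 it held 40.2, 41.5 and 48.3 RPKM on day 34 (75%) and 29.3, 22.4 and 27.9 RPKM on day 42 (50%).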
